A study of Arabidopsis thaliana with 8 samples.

Results

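The combined Arabidopsis thaliana line pifq;bzr1-1D was compared with its wild type, Col-0, across all genes, which gives the net result of 2 genetic changes made together. The comparison rests on the 2 libraries of pifq;bzr1-1D and the 2 of Col-0, which are 4 of the 8 RNA sequencing libraries of the series and were taken by the genotype in their titles. The other 4 libraries, 2 of bzr1-1D and 2 of pifq, entered the same fit and place the combined line against each single change. All seedlings were of the Col-0 ecotype, were grown for 5 days in the dark on MS medium with BRZ (an inhibitor of brassinosteroid synthesis) and are labelled as etiolated, the term for dark-grown seedlings. The line bzr1-1D carries a dominant allele of BZR1, pifq is the quadruple mutant that lacks PIF1 and PIF3 to PIF5, and pifq;bzr1-1D carries both. The wild type was on the inhibitor too, so no genotype was measured without it, and each mutant genotype is represented by 1 line. Nothing in the labels ties the 2 libraries of a genotype to different cultures, and p-values therefore cover only the variation from library to library, part or all of which may be technical.

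Brassinosteroids are steroid hormones that promote cell elongation through the receptor kinase BRI1 and the transcription factor BZR1, which also represses the genes that make the hormone. The bzr1-1D allele stabilises the BZR1 protein, so that it stays active when the hormone is scarce. The phytochrome-interacting factors (PIFs) are bHLH transcription factors that promote hypocotyl growth and hold back greening in the dark, and the study's title names an interaction between BZR1 and PIF4.

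Gene counts summed to 34.4 and 20.5 M in Col-0 and to 29.5 and 16.1 M in pifq;bzr1-1D. Levels below are counts per M (CPM) on library sizes scaled by TMM, an edgeR factor that was 0.942 to 1.04, and a count of 0 allows up to 0.0836 to 0.196 CPM depending on the library. The 2 pifq;bzr1-1D libraries differed from each other more than any other pair, with a chi-square per degree of freedom of 5.5 over genes against 1.72 to 2.47 in the other genotypes. The 20 most abundant genes took 12.7% and 11.9% of the counts in pifq;bzr1-1D and 8.21% and 8.46% in Col-0. Markers of dark-grown seedlings were present in every genotype: PORA, the protochlorophyllide oxidoreductase of etiolated tissue, had 3190.3 and 3198 CPM in Col-0 and 1044 and 1069.6 in pifq;bzr1-1D, and PHYA, the phytochrome that accumulates in the dark, had 1782 and 1740.1 and 1045 and 1077.

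About as many genes were higher as lower in the combined line, and some gene groups differed nearly as a whole. Genes of light harvesting, the photosystems and carbon fixation were higher in 54 of 55, and genes of brassinosteroid synthesis, xyloglucan endotransglucosylases (XTH) and shade and PIF targets were mostly lower (8 of 10, 12 of 15 and 8 of 12). Of 21221 genes tested, 11515 were called (54.3%), 6212 of them higher (29.3%) and 5303 lower (25%). Calls, here and below, are at 0.05 on the Benjamini-Hochberg adjusted p of edgeR's quasi-likelihood test. With a difference of 2-fold or more there were 1115 higher (5.25%) and 1299 lower (6.12%), together 2414 genes (11.4%). The split depends on scaling: with library totals alone the median log2 fold change of all genes moved from 0.03 to -0.11, and 4169 genes were called higher against 8092 lower, so that 34% of calls were higher in place of 53.95%. The share of all genes called is large, so counts against Col-0 in the lists below are to be read beside 29.3% higher and 25% lower. A list near those shares does not stand out from all genes. Sizes are given throughout as log2 fold changes ± SE (n = 2 per genotype).

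**Figure D1:**
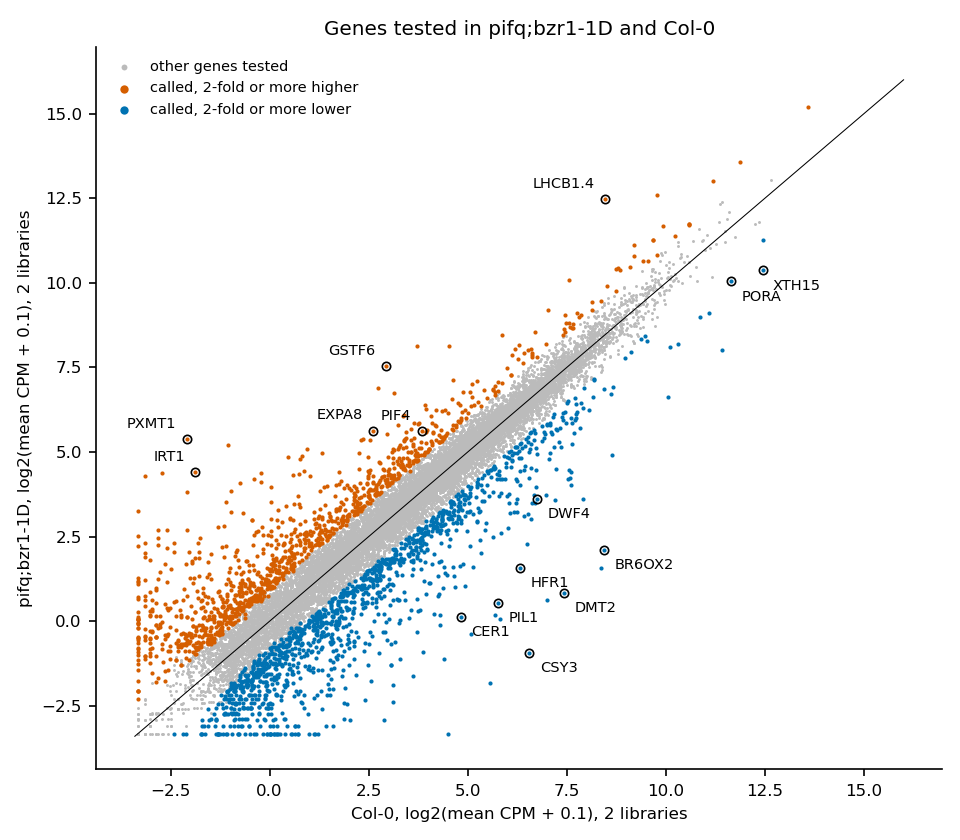
Mean level of each tested gene in Col-0 (x axis) and pifq;bzr1-1D (y axis), both as log2(CPM + 0.1), with the line of equal level; orange and blue points are the 1115 and 1299 genes called 2-fold or more higher and lower. BR6OX2 and CSY3 lie far below the line, and IRT1, PXMT1 and LHCB1.4 far above it.

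Of the mutated genes, 3 had lower transcript levels in the combined line and 2 had higher ones. PIF1 went from 45.9 and 45.6 CPM in the 2 Col-0 libraries to 22.1 and 19.3 in those of pifq;bzr1-1D (log2 fold change -1.12 ± 0.06), and PIF3 from 203 and 200.01 to 124 and 123 (-0.71 ± 0.04). PIF5 went from 35 and 33.9 to 22.2 and 19.6 CPM (-0.70 ± 0.07), above the mean of 11.4 in pifq. PIF4 rose from 13.9 and 14.6 to 49.9 and 47.5 CPM (1.79 ± 0.06), and its mean in pifq was 25.5 CPM. BZR1 rose from 37.4 and 39.5 to 47.6 and 49 CPM (0.33 ± 0.05). The libraries of both genotypes did not overlap for any of these 5 genes. The deposited counts do not resolve parts of a transcript and the bzr1-1D allele alters the protein, so these levels are no check of genotype, and lines carry the names in the labels. The effect of bzr1-1D differed between seedlings with and without the PIFs for PIF3, PIF4, PIF5 and BZR1, as it did for 48.8% of all genes tested. The PIF genes among these are themselves mutated in both lines without the PIFs.

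Relatives of the mutated genes also differed. PIL2, a PIF family member that pifq leaves in place, fell from 89.4 and 93.9 to 8.49 and 9.48 CPM (-3.37 ± 0.06). UNE10, another member, rose from 0.669 and 0.705 to 6.19 and 5.95 CPM (3.15 ± 0.20). Among the relatives of BZR1, BES1, its closest homologue, rose from 76.4 and 76.7 to 115 and 116 CPM (0.60 ± 0.04) while BEH2 fell from 203 and 209 to 118 and 119 (-0.80 ± 0.04). In bzr1-1D alone BES1 had a mean of 44.7 CPM, so the combined line was higher than bzr1-1D by 1.37 ± 0.04 on the log2 scale.

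Genes that make brassinosteroids were low in the combined line, most of all those of the late oxidation steps. Of 10 synthesis genes tested, 8 fell and 0 rose, 5 of the 8 by 2-fold or more, and the list's median log2 fold change was -1.25 against 0.03 over all genes tested. BR6OX2, the oxidase that completes brassinolide, had 346 and 345 CPM in Col-0 and 4.03 and 4.38 in pifq;bzr1-1D (-6.38 ± 0.06, edgeR quasi-likelihood adjusted p = 1.07e-37). Its mean was 30.3 CPM for bzr1-1D and 285 for pifq, and the combined line was below both (log2 fold change -2.86 ± 0.09 against bzr1-1D and -6.10 ± 0.06 against pifq). DWF4, the C-22 hydroxylase, went from 106 and 109 to 12.8 and 11.5 CPM (-3.12 ± 0.06), against 29.5 in bzr1-1D and 96.9 in pifq. Both Col-0 libraries stood above both combined libraries for each of these genes. Over the list 6 genes were called lower than in bzr1-1D and 1 higher, and 8 lower than in pifq and 1 higher (31.6% and 27.8% of all genes tested were lower, and 33.8% and 28.1% higher).

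The C-23 hydroxylase genes CYP90D1 (-3.22 ± 0.13) and ROT3 (-1.53 ± 0.05) and the oxidase gene BR6OX1 (-3.54 ± 0.15) fell as well. CPD, another P450 gene of the pathway, went from 588 and 595 to 297 and 305 CPM (-0.97 ± 0.04), and its level did not differ detectably from bzr1-1D (-0.02 ± 0.04). The sterol and reduction steps differed less: DWF7 had -0.35 ± 0.07 and DWF1 -0.12 ± 0.04, and DWF5 and DET2 were not called (-0.05 ± 0.04 and -0.04 ± 0.09). Of 5 inactivating genes, 2 were called higher and 1 lower. UGT73C5, which attaches glucose to brassinosteroids, rose by 0.64 ± 0.06, BAS1, an inactivating P450, by 0.24 ± 0.06, and BEN1 fell (-0.26 ± 0.08). The BEN1 call was lost without pifq;bzr1-1D replicate 1 (-0.18), and with library totals alone the counts were 1 higher and 2 lower.

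Signalling genes differed little. Of 12 tested, 3 were higher (25%) and 4 lower (33.3%), near the 29.3% and 25% of all genes tested. Of these, 0 reached 2-fold, with a list median of -0.11 (7 were lower with library totals alone). The receptor gene BRI1 fell from 230.1 and 223 to 187 and 193 CPM (-0.26 ± 0.04), and the receptor kinase substrate BSK1 rose from 112 and 108 to 141 and 151 (0.40 ± 0.04). BIN2, the kinase that inactivates BZR1, had 408 and 413 CPM in Col-0 and 431 and 406 in the combined line, which overlap (0.03 ± 0.04). BRL1, a homologue of the receptor, fell (-0.69 ± 0.14).

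Helix-loop-helix genes of growth were mostly lower. In the list of growth-promoting members 6 of 8 fell and 1 rose, and PRE6 went from 20.9 and 20.2 to 8.92 and 8.76 CPM (-1.22 ± 0.08), against 46.9 in bzr1-1D. The single rise, PRE1, lay under 2 CPM and was lost without Col-0 replicate 1 or pifq;bzr1-1D replicate 2. Growth-restraining members were lower too, 5 of 8, with 2 higher. HFR1, which binds PIF proteins and blocks them, fell from 79 and 81.1 to 2.55 and 3.2 CPM (-4.84 ± 0.08), and IBH1, which antagonises growth-promoting bHLH factors, from 35.1 and 34.4 to 1.76 and 4.12 (-3.73 ± 0.13). AIF1 rose from 3.85 and 3.38 to 9.46 and 9.94 CPM (1.39 ± 0.12).

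Genes that PIFs and shade induce were low in the combined line. Of 12 tested, 8 fell and 3 rose, 6 of the 8 by 2-fold or more, with a median of -1.23. PIL1, a bHLH gene used as a marker of shade, fell from 55 and 53.2 to 1.55 and 1.18 CPM (-5.26 ± 0.10), and ATHB2, a homeodomain regulator of shade growth, from 74.4 and 77.3 to 9.49 and 9.02 (-3.02 ± 0.06). ST2A, a sulfotransferase gene, fell from 192 and 195 to 15.3 and 16.9 CPM (-3.61 ± 0.05). Neither PIL1 nor ATHB2 differed detectably from pifq (-0.37 ± 0.22 and 0.17 ± 0.10). Over the list 4 genes were called higher and 4 lower than in pifq (33.3% each), near the 28.1% and 27.8% of all genes tested. ATHB4 was lower than in pifq, at 1.11 and 1.18 against a mean of 3.58 CPM (-1.65 ± 0.21), and PKS4, a phytochrome kinase substrate gene of phototropism, rose from 14.9 and 15.4 to 30.4 and 33.8 CPM (1.07 ± 0.07), against 11.8 in pifq.

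**Figure D2:**
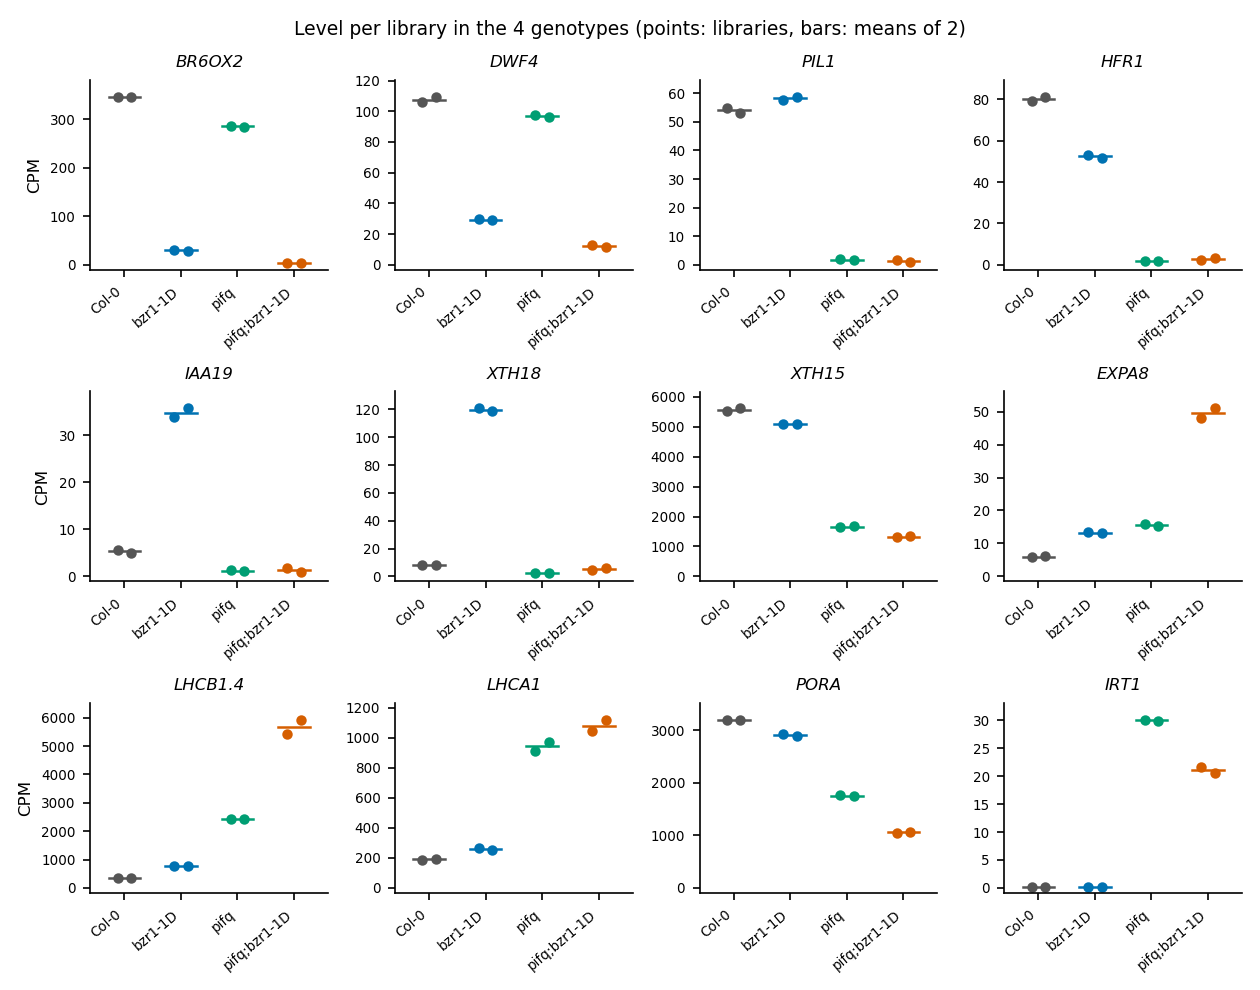
Level in CPM (y axis, linear from 0) of 12 genes in the 2 libraries of each genotype (points) with the mean (bar). BR6OX2 and DWF4 are lowest in pifq;bzr1-1D, PIL1 and HFR1 are lowest in both lines without the PIFs, IAA19 and XTH18 are highest in bzr1-1D, and EXPA8 and LHCB1.4 are highest in pifq;bzr1-1D.

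Genes of wall loosening split by family. XTH enzymes cut and rejoin xyloglucan, and 12 of 15 were lower and 2 higher than in Col-0 (median -0.88, against 0.61 for bzr1-1D and -1.73 for pifq, both against Col-0). XTH15 fell from 5522 and 5615 to 1306 and 1343 CPM (-2.07 ± 0.03), below its mean of 1667 in pifq. XTH18, which had 119.8 CPM in bzr1-1D, had 7.86 and 8.13 in Col-0 and 4.85 and 6.28 in the combined line (-0.57 ± 0.11), and XTH19 fell from 20.6 and 19.6 to 3.6 and 3.14 (-2.56 ± 0.10). The level of XTH18 in the combined line was below bzr1-1D (-4.48 ± 0.07) and above pifq (1.13 ± 0.15). Against bzr1-1D, 14 of the 15 were called lower and 1 higher (31.6% and 33.8% of all genes tested). Against pifq 9 were called higher and 3 lower (28.1% and 27.8% of all genes tested). The members called higher were XTH4, from 337 and 335 to 519 and 529 CPM (0.64 ± 0.03), and XTH23 (0.23 ± 0.09), whose call was lost under 10 of 18 alternatives, among them without Col-0 replicate 1, pifq;bzr1-1D replicate 2 or either pifq library. XTH17 to XTH19 are near-identical copies and uncertain one by one.

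Expansins, which loosen walls without cutting them, did not share that pattern: 4 of 9 rose and 2 fell, against 29.3% and 25% of all genes tested. EXPA8 rose from 5.91 and 6.06 to 48.2 and 51 CPM (3.05 ± 0.07) and EXPA1 from 5.46 and 6.01 to 39.1 and 42 (2.83 ± 0.08). Both were also above the single lines: EXPA8 had 13.3 CPM in bzr1-1D and 15.6 in pifq, and EXPA1 13.4 and 14.5. EXPA11 fell from 192 and 202 to 58.9 and 56.7 CPM (-1.76 ± 0.04) and EXPA4 from 105 and 112 to 29.1 and 31.8 (-1.84 ± 0.05). Of 9 genes of primary wall cellulose, 7 fell and 1 rose, all by less than 2-fold. The synthase subunits CESA1 and CESA3 had -0.47 ± 0.04 and -0.50 ± 0.04, and COB, which orients the fibrils, -0.68 ± 0.04.

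Auxin genes also divided. Auxin synthesis genes were more often higher, 7 of 11 against 2 lower (1 lower without Col-0 replicate 2 or pifq;bzr1-1D replicate 2), with a median of 0.70. TAA1, which starts the main route, rose from 10.7 and 10.5 to 20.7 and 23.1 CPM (1.02 ± 0.08), and CYP79B2, which makes an indole precursor shared with glucosinolates, from 3.43 and 3.38 to 18 and 17.2 (2.37 ± 0.11). YUC8, a flavin monooxygenase of the last step, fell from 15.9 and 19 to 6.83 and 6.6 CPM (-1.34 ± 0.10). The carriers went both ways, 4 of 10 higher and 4 lower, against 29.3% and 25% of all genes tested. The exporter genes ABCB19 (-0.80 ± 0.04) and PIN2 (-0.97 ± 0.08) were lower and PIN7 (0.45 ± 0.04) and PIN3 (0.39 ± 0.04) higher.

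Auxin response genes, most of which are quickly induced by the hormone, were lower in 13 of 27 and higher in 7 (4 without pifq;bzr1-1D replicate 1), with a median of -0.16. The same median was 1.07 for bzr1-1D and -1.0 for pifq, each against Col-0. IAA19, an Aux/IAA repressor gene, had 5.71 and 5.07 CPM in Col-0 and 1.76 and 0.915 in the combined line (-1.90 ± 0.19), with means of 34.9 for bzr1-1D and 1.19 for pifq. Its level in the combined line did not differ detectably from pifq (0.28 ± 0.27). IAA29 fell from 21.9 and 24.3 to 4.28 and 4.84 CPM (-2.35 ± 0.10) and GH3.5, which conjugates auxin to amino acids, from 216 and 219.8 to 69.5 and 75.8 (-1.60 ± 0.04). GH3.2, another conjugating enzyme, rose from 12.5 and 11.1 to 29.3 and 34.4 CPM (1.39 ± 0.08), and SAUR9, a small auxin-induced gene, from 2.93 and 3.34 to 4.53 and 5.29 (0.64 ± 0.15), against 26.2 in bzr1-1D. Across the list 23 of 27 were lower than in bzr1-1D and 2 higher (31.6% and 33.8% of all genes tested). Against pifq 16 were higher and 4 lower (28.1% and 27.8% of all genes tested). SAUR19 to SAUR24 are near-identical copies and uncertain one by one.

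Gibberellin and ethylene genes leaned lower. Of 17 gibberellin genes 9 fell and 2 rose. GA3OX1, which makes the active hormone, fell from 30.9 and 29.2 to 10.7 and 11.4 CPM (-1.46 ± 0.07), below both single lines (58.4 in bzr1-1D and 27.7 in pifq), and GA20OX2, of the step before, from 51.4 and 52.4 to 24.7 and 21.6 (-1.14 ± 0.06). The gibberellin-regulated peptide genes went both ways, with GASA1 at -1.88 ± 0.04, GASA4 at -2.0 ± 0.08 and GASA6 at 2.34 ± 0.06. Of 16 genes of ethylene and the apical hook, the bent tip of a dark-grown shoot, 9 fell and 2 rose (1 without Col-0 replicate 1). HLS1, which hook formation needs, fell from 19.8 and 21.1 to 8.16 and 8.5 CPM (-1.3 ± 0.09), and ACS8, an enzyme of ethylene synthesis, from 6.97 and 7.8 to 0.503 and 0.915 (-3.48 ± 0.22).

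Genes of the photosynthetic apparatus were higher nearly throughout. Of 18 light-harvesting genes 17 rose and 0 fell (1 fell without pifq;bzr1-1D replicate 2 or with library totals alone), 14 by 2-fold or more, with a median of 1.63. LHCB1.4, a photosystem II antenna gene, went from 336 and 367 to 5430.2 and 5928 CPM (4.02 ± 0.05), against means of 773 in bzr1-1D and 2425 in pifq. LHCB1.5 behaved alike, from 852 and 917 to 6019 and 6449.7 CPM (2.82 ± 0.04), and LHCA1, of the photosystem I antenna, went from 185 and 194 to 1043 and 1119 (2.51 ± 0.04). In each of these 3 genes the combined line was above pifq, by 1.23 ± 0.04, 1.06 ± 0.04 and 0.20 ± 0.04. Summed over the list, the antenna genes had 27589 and 29436 CPM in Col-0, 73806 and 75097 in pifq and 91719 and 93825 in the combined line. The LHCB1 and LHCB2 genes are near-identical copies, so single members are uncertain while their sum is less so. LHCB2.3 was lower than in pifq, at 95.8 and 103 against 164 CPM (-0.73 ± 0.04).

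All 23 photosystem and electron transport genes tested were higher than in Col-0, 8 of them by 2-fold or more (median 0.95), and all 14 carbon fixation genes were higher, 0 by 2-fold (median 0.41). PSAH2 and PSAO, subunits of photosystem I, had 1.31 ± 0.04 and 1.3 ± 0.04, GAPA, a Calvin cycle dehydrogenase gene, 0.77 ± 0.04, and the Rubisco activase gene RCA 0.30 ± 0.04. Both lists leaned lower against pifq, where 27.8% of all genes tested were called lower and 28.1% higher. Of 23 photosystem genes 13 were called lower than in pifq and 2 higher, and of 14 carbon fixation genes 10 and 1. PSAH2 for instance had 181 and 177 CPM in Col-0, 443 and 449 in the combined line and 618 in pifq.

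Chlorophyll and haem genes were higher in 23 of 26 and lower in 3, with a median of 0.39. Against pifq 19 of the 26 were called lower and 3 higher (27.8% and 28.1% of all genes tested). HEMA1, which starts tetrapyrrole synthesis, rose from 294 and 291 to 575 and 566 CPM (0.96 ± 0.03), GUN4, an activator of magnesium chelatase, from 65.5 and 69.6 to 153 and 157 (1.2 ± 0.04), and CH1, which makes chlorophyll b, from 107 and 102 to 200.2 and 204 (0.95 ± 0.04). PORA, whose enzyme needs light, went the other way, from 3190.3 and 3198 to 1044 and 1069.6 CPM (-1.60 ± 0.03), below the mean of 1756 in pifq. PORC, the form of green tissue, rose from 32.3 and 33.6 to 61.8 and 62.6 CPM (0.92 ± 0.05).

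Transcripts of chloroplast-encoded genes took 0.464% and 0.646% of the gene counts in Col-0 and 1.5% and 0.934% in the combined line, with no overlap. They took 0.998% and 1.14% in pifq, between the values of the combined line, and 0.46% and 0.61% in bzr1-1D. Of 107 chloroplast-encoded genes tested, 90 were called higher than in Col-0 and 0 lower, with a median of 0.88. Without pifq;bzr1-1D replicate 1, the library with the larger share, 53 were called higher and 2 lower with a median of 0.57, and DESeq2 called 65 higher. This count was added after seeing the data, under the alternatives planned for the other results.

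**Figure D3:**
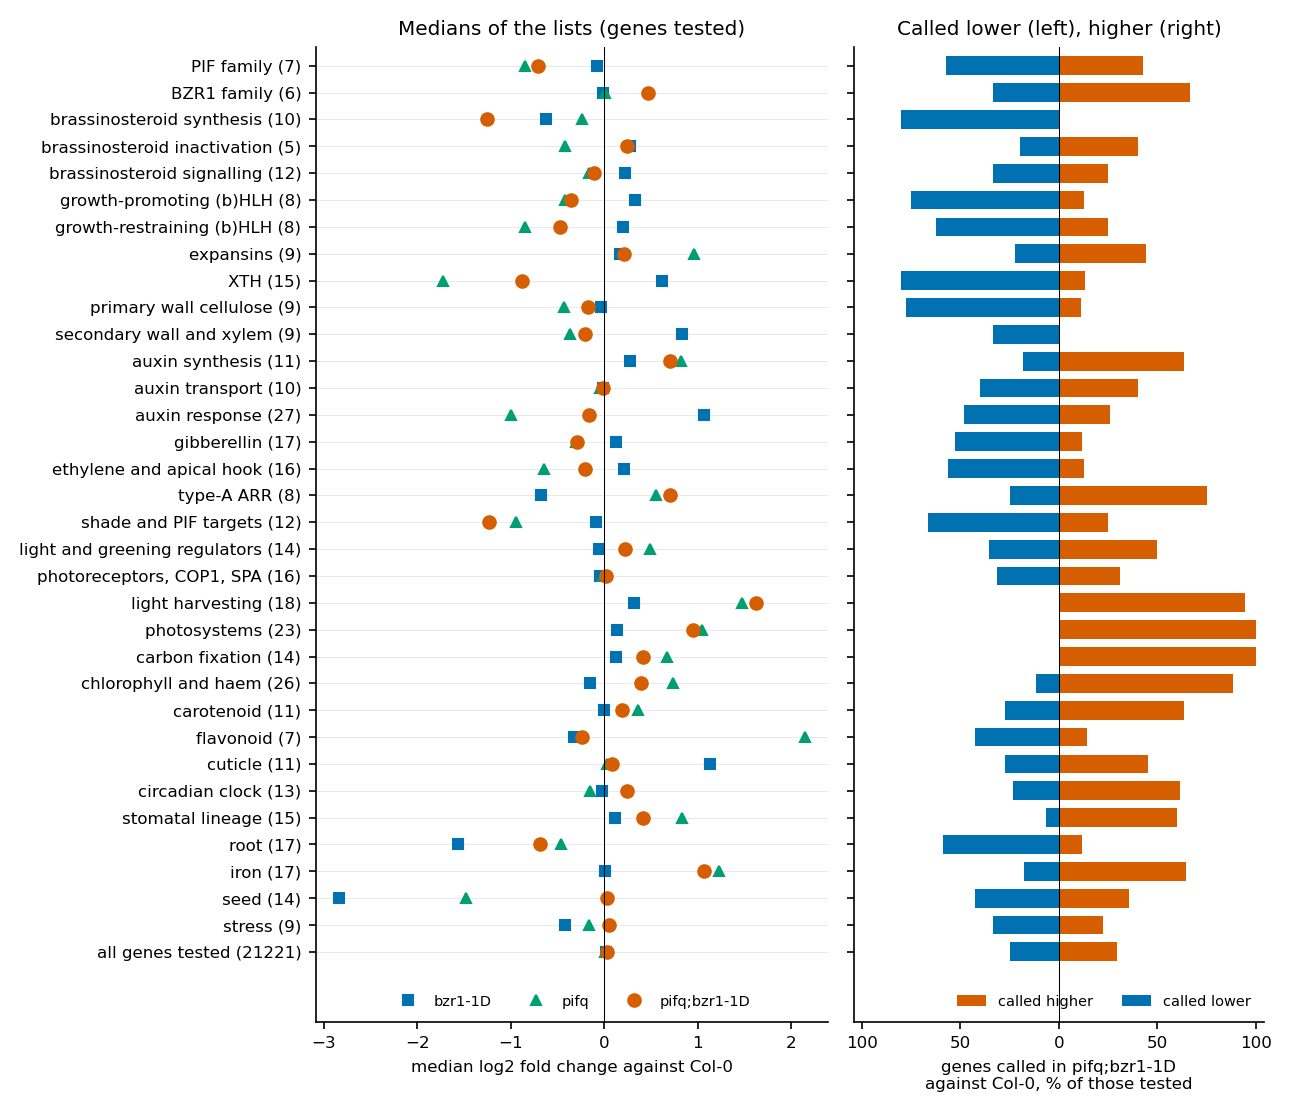
Left, median log2 fold change against Col-0 of each list of genes in bzr1-1D (squares), pifq (triangles) and pifq;bzr1-1D (circles), with the number of genes tested; the 3 medians of a row share the Col-0 libraries. Right, percent of the tested genes called higher (orange) or lower (blue) in pifq;bzr1-1D against Col-0; light harvesting, the photosystems and carbon fixation have 0 genes called lower, and the last row gives 29.3% and 25% over all genes.

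Regulators of greening accompanied these genes in part. GLK1 and GLK2, transcription factors that activate antenna and chlorophyll genes, rose from 13.7 and 13.6 to 28.2 and 25.2 CPM (0.98 ± 0.08) and from 38.1 and 38.8 to 67.3 and 71.6 (0.85 ± 0.05). SIG1, a sigma factor of the plastid polymerase, rose by 0.83 ± 0.04. HY5, a factor that promotes light-grown development, fell from 32.9 and 29 to 20.2 and 19.2 CPM (-0.66 ± 0.07), and the early light-induced genes ELIP1 and ELIP2 went from 3.57 and 3.66 to 0.18 and 0.131 and from 5.71 and 5.92 to 0.252 and 0.131 CPM. In the whole list of light and greening regulators 7 of 14 were higher and 5 lower, or 5 and 5 with library totals alone.

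Flavonoid genes were low against pifq. TT4, the chalcone synthase gene that starts the pathway, had 7.5 and 7.61 CPM in Col-0, 137 in pifq and 5.11 and 7.65 in the combined line, a log2 fold change of -4.50 ± 0.08 against pifq (edgeR quasi-likelihood adjusted p = 1.94e-30). FLS1, flavonol synthase, had 17.8 CPM in pifq and 1.19 and 1.5 in the combined line (-3.77 ± 0.15), and MYB111, a regulator of flavonol genes, 19 and 3.96 and 2.88 (-2.42 ± 0.12). Of 7 tested, 6 were lower than in pifq, all by 2-fold or more (3.85% of all genes tested). Against Col-0 3 were lower and 1 higher, and the call of TT4 there (-0.32 ± 0.13) was lost without pifq;bzr1-1D replicate 1 (-0.0040) or either Col-0 library, and under 3 other alternatives.

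Iron genes, those of uptake, regulation and storage among them, were mostly higher in the combined line than in Col-0. Of 17 tested, 11 rose and 3 fell, 9 of the 11 by 2-fold or more, with a median of 1.06. In pifq 13 were higher than in Col-0 and 4 lower, with a median of 1.22. The combined line was lower than pifq in 8 and higher in 2 (27.8% and 28.1% of all genes tested). IRT1, the main iron transporter of the root surface, had 0.111 and 0.235 CPM in Col-0 and 21.7 and 20.5 in the combined line (7.03 ± 0.19), with means of 0.137 for bzr1-1D and 30 for pifq. FRO2, the reductase that works with it, rose from 1.25 and 1.41 to 8.38 and 8.04 CPM (2.65 ± 0.15), OPT3, which loads iron into the phloem, from 50 and 52.7 to 126 and 123 (1.29 ± 0.04), and BHLH101, a regulator of the response, from 0.139 and 0.235 to 4.32 and 5.43 (4.72 ± 0.31). FER4, a ferritin gene of iron storage, fell from 54.7 and 54.6 to 28.8 and 30.7 CPM (-0.89 ± 0.06). With library totals alone 6 of the list were called lower in place of 3.

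Markers of organs and cell types that a whole seedling holds also moved, and in bulk tissue fewer cells of a type and less RNA per cell cannot be told apart. Of 17 root markers 10 fell and 2 rose, 8 of the 10 and 1 of the 2 by 2-fold or more. The 2 that rose are not among the markers named below. With the filter of 1 CPM, which removes low genes, 5 fell. The summed level of the list was 115 and 117 CPM in Col-0 and 80.9 and 78.6 in the combined line. It was 130 and 139.9 in bzr1-1D and 85.5 and 85.2 in pifq. Root hair wall genes were among those that fell: PRP3 went from 4.79 and 5.59 to 0 and 0.196 CPM, LRX1 from 3.6 and 3.57 to 0.0719 and 0, and EXPA7 from 0.948 and 0.986 to 0 and 0.0654. COBL9 had 0.78 and 1.17 CPM in Col-0 and 0 counts in both combined libraries. The same genes had means of 0.198, 0.0806, 0.0392 and 0.0573 CPM in bzr1-1D and 2.47, 2.12, 0.705 and 0.52 in pifq. Among the markers of the root tip and inner layers in the list, SCR fell (-0.53 ± 0.05), and PLT1 (0.06 ± 0.22), PLT2 (-0.28 ± 0.29), SHR (-0.10 ± 0.08) and WOX5 (-0.59 ± 0.49) were not called. The part of root tissue in the iron result was not tested.

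Stomatal lineage genes were higher in 9 of 15 and lower in 1 (2 with library totals alone), with a median of 0.42. In pifq 11 were higher than in Col-0 and 2 lower, with a median of 0.83. The combined line was lower than pifq in 5 and higher in 3 (27.8% and 28.1% of all genes tested). SPCH, which starts the lineage, rose from 1.06 and 1.32 to 4.93 and 4.64 CPM (2.05 ± 0.19), TMM (TOO MANY MOUTHS), a receptor protein gene of the lineage, from 4.1 and 4.42 to 13.3 and 14.3 (1.70 ± 0.11), and SCRM2, a partner of SPCH, from 13.4 and 14.7 to 36.4 and 33.5 (1.34 ± 0.07). The receptor kinase gene ER fell from 218 and 218 to 121 and 129.8 CPM (-0.80 ± 0.04), and the summed level of the list was 359 and 363 CPM in Col-0 and 325 and 329 in the combined line. Among 9 genes of secondary walls and xylem 3 fell and 0 rose (the fall of IRX9 was lost without pifq;bzr1-1D replicate 1 or either Col-0 library), with XCP1, a xylem protease gene, from 12 and 10.6 to 3.38 and 3.99 CPM (-1.67 ± 0.12). Their sum was 63.6 and 60.5 CPM in Col-0 and 50.7 and 48.2 in the combined line. No marker of either list was at 0 counts in both libraries of a genotype, and their part in other results was not tested.

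Seed genes went both ways. Of 14 tested, 5 rose and 6 fell, and their sum was 203 and 199 CPM in Col-0, 108 and 106 in the combined line, 61.1 and 62.2 in pifq and 24.3 and 26.0 in bzr1-1D. The cruciferin storage gene CRA1 fell from 80.4 and 79.9 to 16.4 and 16.1 CPM (-2.30 ± 0.06), and CRU3 from 85.9 and 83.3 to 44.1 and 40.5 (-0.99 ± 0.05). The 2S albumin genes went up: SESA3 had 0.0836 and 0 CPM in Col-0 and 4.75 and 4.51 in the combined line, SESA2 0.111 and 0.235 and 3.88 and 3.27, and SESA5 8.53 and 6.44 and 13.4 and 12.9 (0.78 ± 0.11). SESA genes are near-identical copies and uncertain one by one. Against bzr1-1D, in which CRU3 had 0.547 and CRA1 0.706 CPM, 12 of the 14 were called higher, all of them by 2-fold or more (6.78% of all genes tested). The part of seed tissue in other results was not tested.

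The 12 highest and 12 lowest fold changes were taken among called genes with at least 10 CPM in the higher genotype and no overlap of libraries. AT1G26380, an FAD-binding berberine family gene, had 1 and 0 counts in Col-0 and 483 and 330 in the combined line, a ratio of 1078 with a counting interval of 193 to 42638. CYP71A12, a P450 gene of indole defence compounds, had 2 and 1 counts in Col-0 and 593 and 303 in the combined line, a ratio of 396 with an interval of 135 to 1924. Those intervals cover counting error only. Next came PXMT1, a methyltransferase gene, from 0.223 and 0.047 to 43 and 40.5 CPM (8.01 ± 0.18), then IRT1, and AT2G44220 (6.78 ± 0.23) and AT4G13575 (6.43 ± 0.15). AT2G43620, of the chitinase family, had 5.07 ± 0.19, the peroxidase gene PER4 5.06 ± 0.17, the microRNA precursor gene MIR850 4.96 ± 0.20, AT5G18840, a transporter of the major facilitator family, 4.67 ± 0.16, and the glutathione transferase gene GSTF6 4.64 ± 0.06. GSTF6 reached 189 and 185 CPM from 7.41 and 7.61 in Col-0.

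Among the 12 lowest, which include BR6OX2, 3 are close neighbours on chromosome 2. AT2G42780, a transcription elongation factor gene, had 819 and 478 counts in Col-0 and 0 in both combined libraries, at least 326-fold lower against a floor of 3 counts over the group. AT2G42750, a DnaJ-domain gene, had 46.7 and 47.3 and 0.108 and 0.261 CPM (-8.13 ± 0.16), and CSY3, a peroxisomal citrate synthase gene, 95.1 and 93.3 and 0.324 and 0.523 (-7.88 ± 0.13). AT2G42170, of the actin family, fell (-6.47 ± 0.09) and lies 72 tested genes from PIF4 on the same chromosome. Of the 12 highest, AT2G43620 and AT2G44220 lie 55 and 108 tested genes from PIF4. The DNA methyltransferase genes DMT2 and AT4G08990 are near-identical copies, so reads could be split between them, and both fell (-6.76 ± 0.09 and -5.60 ± 0.14). Both were low in each mutant line, with means of 8.39 and 1.68 CPM in bzr1-1D and 2.44 and 0.617 in pifq. The pseudogene AT5G28145 had 327 and 327 CPM in Col-0 and 2.95 and 2.75 in the combined line (-6.83 ± 0.07), and likewise 1.07 in bzr1-1D and 2.43 in pifq. The others were AT5G57785 (-5.90 ± 0.12), the beta-galactosidase gene BGAL7 (-5.89 ± 0.17), the P450 gene CYP96A5 (-5.55 ± 0.11) and the kelch repeat gene AT1G74150 (-5.54 ± 0.24).

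The chromosome around PIF4 held many genes with lower levels. Within 30 tested genes on each side of PIF4 in the annotation's order, 13 of 60 neighbours were called 2-fold or more lower and 4 higher, against 0 to 3 lower and 3 to 6 higher around PIF1, PIF3, PIF5 and BZR1. The 5 consecutive tested genes AT2G42750, AT2G42760, AT2G42770, AT2G42780 and CSY3, at 24 to 20 genes before PIF4, were at or near 0 in both lines without the PIFs. AT2G42770, a peroxisomal membrane protein gene, had 7.11 and 7.37 CPM in Col-0 and 0 and 0.0654 in the combined line, with means of 6.2 for bzr1-1D and 0.0409 for pifq. Around PIF4, 9 neighbours were 2-fold or more lower in pifq (5.89% of all genes tested) and 2 in bzr1-1D (4.36%), and 6 and 3 were 2-fold or more higher (6.77% and 7.02%). IBH1 is the fourth tested gene after PIF4 and PAR1 the thirteenth before it, so both growth-restraining genes that fell most after HFR1 lie in this stretch. NAC042, a NAC transcription factor gene next to PIF4, rose from 0.111 and 0.047 to 2.95 and 2.68 CPM (4.95 ± 0.38). Its means were 0.469 CPM for bzr1-1D and 0.239 for pifq, and it was called higher in bzr1-1D (2.36 ± 0.58) but not in pifq. The neighbours RLP29 and AT2G42980 were likewise called in the combined line and not in pifq. For neighbours that differed in both lines without the PIFs, an effect of the line's chromosome around PIF4 and one of losing the PIF proteins cannot be told apart. For neighbours not called in pifq, such as NAC042, the cause was not tested.

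**Figure D4:**
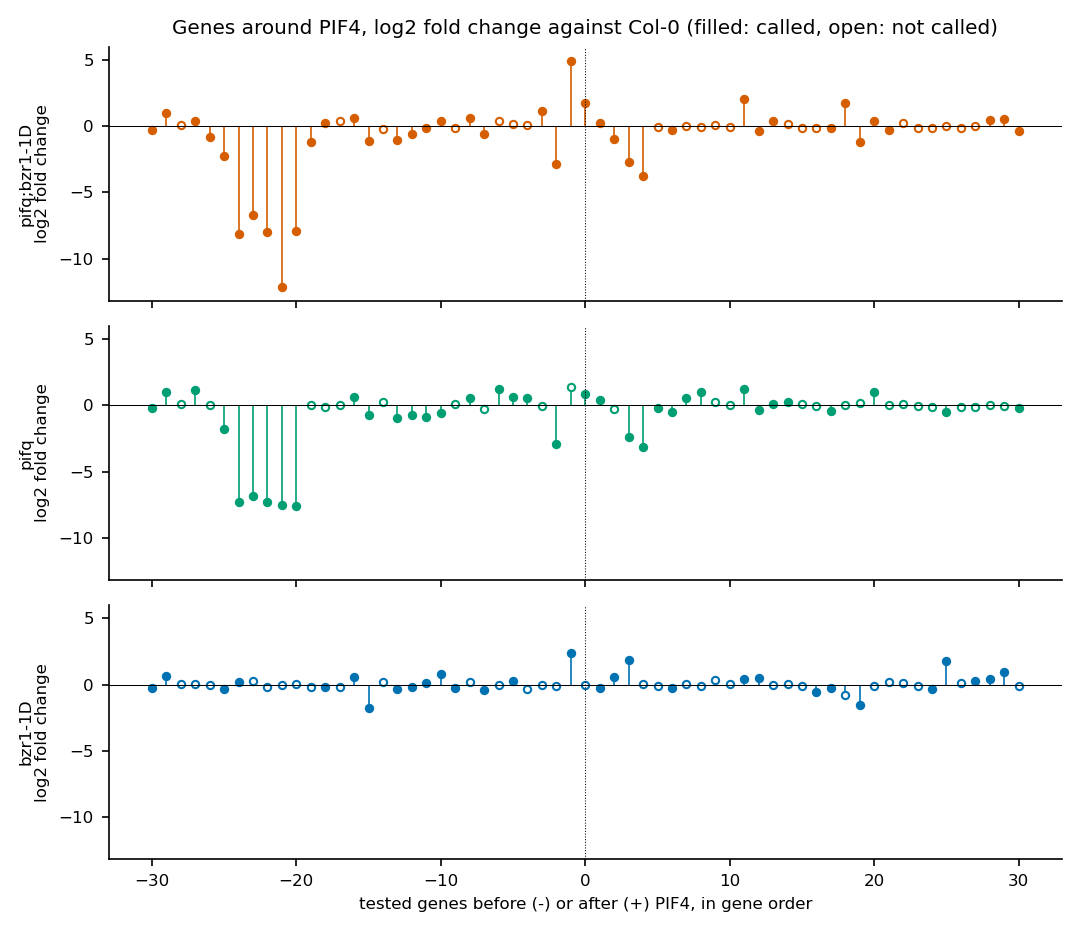
Log2 fold change against Col-0 (y axis) of the tested genes up to 30 places before and after PIF4 in gene order (x axis) in pifq;bzr1-1D, pifq and bzr1-1D; filled points are called genes. A run of 5 genes 24 to 20 places before PIF4 is low in both lines without the PIFs and near 0 in bzr1-1D; the value of the gene at -21 in pifq;bzr1-1D is a fitted one, since its count was 0 in both libraries.

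Some genes lay beyond both single lines. With 10 CPM or more in the highest genotype, 36 of 13230 genes were called 2-fold or more higher than Col-0, bzr1-1D and pifq alike, and 42 were called 2-fold or more lower. Over all genes tested 5.25% were that much higher than in Col-0, 6.78% than in bzr1-1D and 3.77% than in pifq, 6.12%, 9.98% and 3.85% were that much lower in the same order, and the 3 contrasts share the pifq;bzr1-1D libraries. PXMT1 had 8.77 CPM in bzr1-1D, 0.612 in pifq and 43 and 40.5 in the combined line, and PER4 had 2.56, 0.457 and 17.5 and 16.3. AT1G26380 had means of 1.17 CPM in pifq and 19.5 in the combined line, and CYP71A12 2.11 and 20.6. On the lower side BGAL7 had 21.6 and 20.2 CPM in Col-0 and 0.324 and 0.392 in the combined line, with means of 33.1 for bzr1-1D and 3.55 for pifq. CYP96A5 had 55.2, 4.15 and 1.22 and 0.85 CPM in the same order of mutant lines, and the small heat shock protein gene ATHSP22.0 4.71, 3.55 and 0.539 and 0.327.

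**Figure D5:**
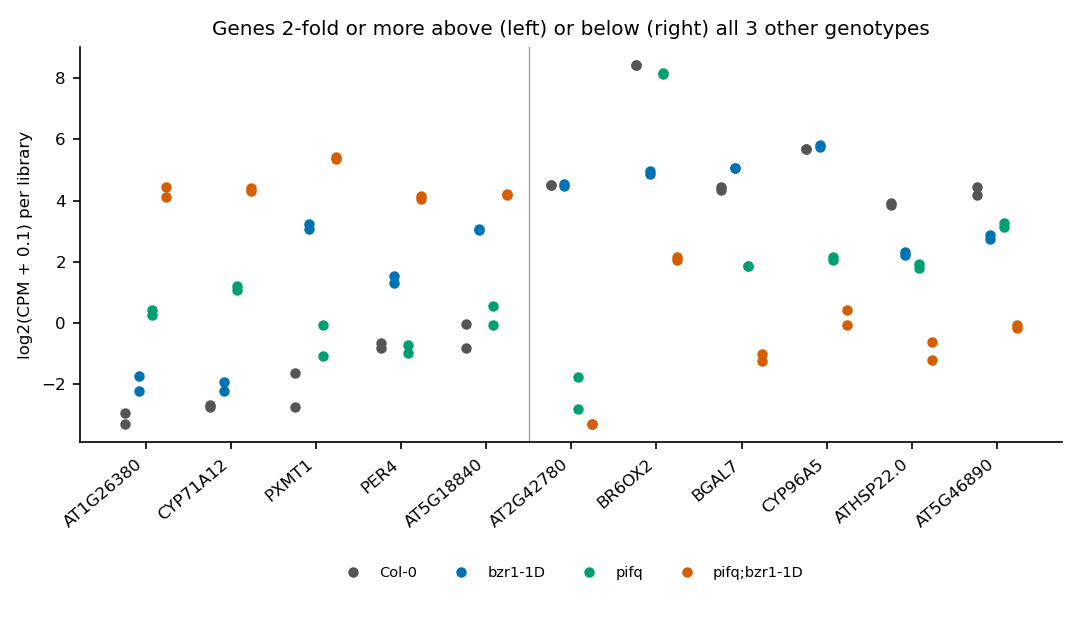
Level per library as log2(CPM + 0.1) (y axis) of 5 of the 6 highest and the 6 lowest genes that were called 2-fold or more beyond Col-0, bzr1-1D and pifq alike, chosen for these values. In each gene both pifq;bzr1-1D points (orange) lie outside the points of the other 3 genotypes.

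Other genes were named because they were called in opposite directions in the single lines while the combined line's 95% interval of the log2 fold change lay within -0.5 to 0.5. Their values are a description. Both single lines and the combined line were set against the same Col-0 libraries. FLA9, a fasciclin-like arabinogalactan protein gene of the wall, had 100.2 and 103 CPM in Col-0 and 108 and 112 in the combined line, with means of 465 for bzr1-1D and 40.8 for pifq. AGP12, an arabinogalactan peptide gene, had means of 69.5 CPM for Col-0, 207 for bzr1-1D, 28.4 for pifq and 57.9 for the combined line. GALS2, a galactan synthase gene, had 15, 39.1, 5.19 and 12.3 CPM in the same order. SAUR20, AT1G08310, AT5G27220, CYP71B20 and XTH23 complete the 8 taken by the rule. Log2 fold changes against Col-0 over the 8 ran from -0.31 ± 0.08 for GALS2 to 0.23 ± 0.09 for XTH23, and both of these calls depend on single libraries: that of GALS2 was lost without pifq;bzr1-1D replicate 1.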

How the data were processed

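Gene counts of 8 RNA sequencing libraries, 2 for each of 4 genotypes, were used as deposited: per the submitters' processing notes the authors used TopHat, HTSeq and the TAIR9 genome, with versions and the handling of strand and of reads with several hits not given in the sources used here. Rows that name no gene were left out: reads outside genes (2.68% to 4.27% of all rows' counts) and ambiguous reads (1.95% to 2.08%). Of 33518 gene codes, 32709 matched the TAIR10.1 annotation of RefSeq, which gave names, products and gene order only, since its build is another. The 8 libraries were fitted together, with a mean for each genotype, by edgeR 4.0.16 in R 4.3.3 (TMM scaling, filterByExpr, quasi-likelihood F test, Benjamini-Hochberg adjustment), and SE was derived from the F statistic. The pipeline was tested on simulated data. Depth sets precision: intervals and floors of 3 counts cover counting error only. Groups came from titles. Replicate numbers were shared between genotypes, but deviations of same-numbered libraries correlated by only -0.020 to 0.030, so they were not used as pairs.

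Alternatives were other scalings, filters, DESeq2 1.42.0, 4 libraries alone, a replicate block, thinning, a test against 1.5-fold and each library left out. Named genes are the mutated genes, the 12 highest and 12 lowest, in each list up to 5 members with the smallest p, 6 each way beyond both single lines and 8 with a small net change. Other list members and the neighbours of PIF4 were chosen after their values were seen. The comparison and the 33 lists (451 members, of which 424 passed the filter on low counts) were chosen with earlier results of these data known. A planned search of promoters for motifs was not run, as no promoter sequences of the files' build were used here. Values of some genes that these rules name are not reported here.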

Additional observations from a re-analysis of the deposited data

Results flagged for a closer look

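The effect of bzr1-1D, taken as a log2 fold change, differed between seedlings without and with the PIFs for 6 of 13 genes examined for it. The test was one of the difference in the same edgeR fit, and 48.8% of all genes tested were called by it. Besides the mutated genes, these were the 4 highest and 4 lowest fold changes of the combined line against Col-0. They were chosen on values that enter the same test. PIF1 and PIF3 to PIF5 are themselves mutated in both lines without the PIFs, so their counts there come from the mutant alleles. PIF4 also lies in the stretch of neighbours described above. The part of either in these differences was not tested. For PIF4 the effect was 0.99 ± 0.10 larger without the PIFs (0.94 against -0.05), and for PIF5 0.93 ± 0.10 larger (0.89 against -0.03). The difference was 0.47 ± 0.05 for PIF3 (0.14 against -0.32) and 0.40 ± 0.07 for BZR1 (0.52 against 0.13). In the pseudogene AT5G28145 it was 8.48 ± 0.27, from -8.24 with the PIFs to 0.24 without them, where pifq alone was already near 0. In AT2G42780 the adjusted p was 0.021, and no size is given because both combined libraries had 0 counts and pifq was near 0. PIF1 showed no detectable difference (0.01 ± 0.09), and neither did AT1G26380, CYP71A12, PXMT1, IRT1, AT2G42750 or CSY3.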

How the results depend on the processing

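Over 18 alternatives the number of genes called stayed within 1.5 times of 11515 except in the test against a 1.5-fold change, which by construction calls fewer (2783, with 1386 higher and 1397 lower). With library totals alone 8092 genes were called lower, and the cause was not tested. Leaving out 1 library gave 9271 to 11577 genes called, 2250 to 2506 with 2-fold or more, 4663 to 6254 higher and 4543 to 5750 lower. DESeq2 called 8621, 8607 of them shared. With the replicate block 11522 genes were called, 11461 of them shared, though replicate numbers do not pair the libraries. Of 198 named genes, 143 had the same call and direction under every alternative that tested them, 50 lost their call in the 1.5-fold test and 10 under any other. A few named genes were not tested with the 1 CPM filter, with 4 libraries alone or after thinning. Direction reversed in 3 genes near 0, the cause not tested. AT5G27220 (0.03) became -0.0038 with RLE size factors, -0.11 with library totals and -0.0026 with the 1 CPM filter, and ranged from -0.087 to 0.22 when a library was left out. FLA9 (0.11) became -0.027 with library totals. AT1G08310 (-0.05) became 0.092 when thinned and ranged from -0.15 to 0.022 when a library was left out. Of 66 list counts, 19 were the same under all alternatives.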

Other observations

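Response regulator genes of cytokinin, a hormone of cell division and greening, were mostly higher in the combined line. Of 8 type-A genes, which are quickly induced by cytokinin, 6 rose and 2 fell against Col-0, with a median of 0.71. ARR16 went from 1.37 and 0.892 to 5.65 and 5.82 CPM (2.26 ± 0.19), ARR6 from 5.69 and 5.68 to 12.4 and 11.8 (1.1 ± 0.10) and ARR4 from 33.4 and 33.4 to 57.4 and 58.1 (0.79 ± 0.05). ARR8 fell from 52.8 and 53.7 to 20 and 21 CPM (-1.39 ± 0.06). Of 13 genes of the circadian clock 8 rose and 3 fell, or 6 and 5 with library totals alone, with a median of 0.25. TOC1 rose from 148 and 147 to 212 and 214 CPM (0.53 ± 0.04), LUX from 68.7 and 72.1 to 109 and 110.3 (0.64 ± 0.04) and PRR5 from 10.1 and 10.1 to 20 and 20 (0.99 ± 0.08), and LHY (-0.50 ± 0.05) and CCA1 (-0.42 ± 0.05) fell.

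Photoreceptor genes split. PHOT1, a blue light receptor of phototropism, fell from 559 and 545 to 243 and 253 CPM (-1.16 ± 0.04) and PHYB, the red light receptor of green tissue, from 122 and 114 to 61.3 and 61.8 (-0.95 ± 0.04), while PHOT2 rose from 70.9 and 69 to 125 and 126 (0.84 ± 0.04). With their signalling partners 5 of 16 rose and 5 fell, or 4 and 8 with library totals alone. At 31.3% each way under the main scaling, the list was near the 29.3% higher and 25% lower of all genes tested. Carotenoid genes were higher in 7 of 11 (4 without pifq;bzr1-1D replicate 1) and lower in 3, led by PSY, phytoene synthase, from 99.1 and 97.9 to 174 and 169 CPM (0.80 ± 0.04). Wax and cuticle genes included a large fall of CER1, which makes alkanes, from 28.7 and 28 to 0.935 and 1.05 CPM (-4.86 ± 0.13), and a rise of KCS20, a fatty acid elongase, from 74.1 and 71.5 to 265 and 262 (1.85 ± 0.04). In all 5 of 11 rose and 3 fell, or 3 and 4 with library totals alone, against 29.3% and 25% of all genes tested under the main scaling. Of 9 stress genes 2 rose (1 with DESeq2, RLE size factors or library totals alone) and 3 fell, shares near those of all genes tested (29.3% and 25%). RD29A, a marker of cold and drought, fell from 16.4 and 16.1 to 1.94 and 2.22 CPM (-2.99 ± 0.13).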
